A study of Homo sapiens with 4 samples.

Results

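The genes described here are homeobox developmental transcription factors and their close namesakes, measured in SH-SY5Y neuroblastoma cells with and without origamicin. They were picked by a rule on symbols, chosen with earlier results of these data known. The rule takes genes of the 4 HOX clusters and of the PHOX2 and NKX families. It also takes numbered genes of the LHX, ISL, PAX, DLX, MEIS, PBX, IRX, MSX, OTX and POU families and of the family of SIX2. Antisense genes (11 symbols) and 2 genes that the rule leaves out by name were not included. The rule found 103 genes among the 14884 named on the array, and 98 of the 103 code for a protein. The other 5 are a long noncoding RNA (ISL1-DT) and 4 transcribed pseudogenes (MEIS3P1, MSX2P1, POU5F1P3 and POU5F1P4). The label does not hold for every member: POU2AF1 and POU2AF3 encode coactivators of POU factors, and PAX1 and PAX9 carry a paired domain without a homeodomain. RefSeq lists 121 protein-coding genes under the same rule, and all HOXA genes but HOXA2 are among those not analysed here.

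The homeodomain is a short helical DNA-binding fold, and homeobox genes assign position and cell identity in the embryo. HOX genes lie in clusters and are numbered by their place along them. The TALE-class proteins MEIS and PBX bind DNA together with HOX proteins and sharpen their choice of sites. In the sympathetic lineage, from which neuroblastoma arises, PHOX2A takes part in the noradrenergic programme.

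The study hybridised RNA from 4 samples of SH-SY5Y, an established human neuroblastoma line cloned from SK-N-SH, to Affymetrix Human Gene 2.0 ST arrays. The mock group (n = 2 arrays) received methanol for 24 h, and the origamicin group (n = 2 arrays) received 30 µM origamicin for 24 h, a compound that the series title says blocks protein disulfide isomerase, an enzyme of protein folding. The labels call the arrays biological replicates and give no passage or day for the cultures, and a p-value here reflects no more than how these 4 arrays scatter. Values are deposited log2 expression from RMA, a change is the origamicin mean minus the mock mean on that log2 scale, and SE is limma's moderated standard error over 2 arrays per group.

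Of the 103 members, 92 had a mean at or above 3.82, the 40th percentile of all probe sets, and were tested among 11883 genes. The other 11 were too dim to test: HOXA2, HOXB1, HOXB4, HOXB5, HOXB6, LHX5, PAX3, PAX6, POU1F1, POU3F4 and POU5F1B. Their values lay between 2.27 and 3.93 on all arrays, and without a filter none of the 11 had an unadjusted limma p under 0.05. Many tested members were dim as well. A mean below 5 was found for 42 of the 92 (45.7%), against 22.4% of all genes tested, and values near background can understate a change.

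After origamicin 53 of the 92 tested members were lower (57.6%), against 52.1% of all genes tested. The TALE cofactor MEIS1, the posterior HOX genes HOXD13 and HOXD9 and the neural POU factor POU3F2 had the largest changes of the members with an unadjusted p under 0.05. No member passed an adjusted p of 0.05 in the limma fit, where 0% of the 11883 genes passed; the smallest adjusted p was 0.104, for MEIS1. At an unadjusted p under 0.05 there were 14 members (15.2%), close to the 16.4% of all genes. Of these 14, 13 were among the 50 members with a mean of 5 or more and 1 among the 42 below 5. The share of all genes at these levels was not computed. The directions of the 14 were unequal: 13 were lower (14.1% of members, 8.42% of all genes) and 1 was higher (1.09%, 7.99% of all genes). Without mock replicate 1, 12 of the 92 members had an unadjusted p under 0.05, against 10.7% of all genes. Of these 12 the lower count was 7, against 5.35% of all genes. The directions were thus less unequal in that refit, which rests on 1 mock array. Among the refits without 1 array, it was the one where they were least unequal. In each of the others, too, more members at that p were lower than higher. For those others the lower share of all genes was not computed, and each also leaves 1 array in a group. A change of at least 0.3 downward was found in 13 members (14.1%; 5.18% of all genes), of which 4 had an unadjusted p of 0.05 or more, and no member was higher by that much (5.2% of all genes). A change of 0.5 or more was found in 4 members (4.35%; 2.2% of all genes), all of them lower (1.03% of all genes).

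Where limma's variance was allowed to follow intensity, MEIS1, HOXD13 and HOXD9 passed an adjusted p of 0.05 (3 of 92, 3.26%). All 3 were lower. In that fit 4.3% of all genes passed, 2.16% lower and 2.14% higher. The median change was -0.03 over the tested members and -0.01 over all genes tested. The members' lower and upper quartiles were -0.20 and 0.07, and those of all genes -0.11 and 0.10. The groups did not overlap in 40 members (43.5%; 48.6% of all genes), 29 lower (25.8% of all genes were so) and 11 higher (22.7%).

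**Figure D1:**
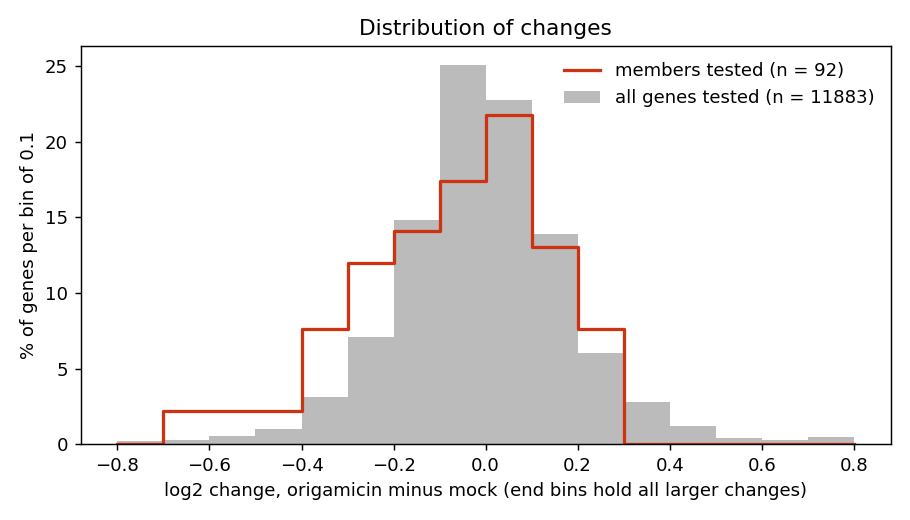
Share of genes per bin of 0.1 in log2 change (x axis, origamicin minus mock), as grey bars for the 11883 genes tested and a red line for the 92 members tested; the end bins also hold genes beyond -0.8 and 0.8. The members' line lies above the bars between -0.7 and -0.2 and ends at 0.3 on the right.

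MEIS1, a TALE-class cofactor of HOX proteins, had the smallest p of all members. It read 7.10 and 7.13 on the mock arrays and 6.49 and 6.34 on the origamicin arrays. Both treated values lay below both controls, a 1.62-fold lower level with a log2 change of -0.70 ± 0.08 SE (95% interval -0.91 to -0.49). Its limma adjusted p was 0.104, and 0.0107 with the intensity trend. It also passed when the filter was set at the 60th percentile (adjusted p = 0.036), where 0.993% of the genes passed and it was the only member to do so. At that filter 14 of 51 tested members had an unadjusted p under 0.05, 13 of them lower, against 21% of all genes, 11.3% lower.

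The other MEIS and PBX genes differed among themselves. PBX3, a binding partner of HOX and MEIS proteins, read 7.41 and 7.33 in mock and 7.001 and 7.10 in treated cells, and the groups did not overlap. Its change was -0.32 ± 0.08 SE (limma unadjusted p = 0.010, adjusted p = 0.190). MEIS2, the closest paralog of MEIS1 here, read 8.97 and 8.92 in mock and 8.92 and 8.95 in treated cells, a change of -0.01 with a 95% interval of -0.18 to 0.16. A change of MEIS1's size therefore lay outside the interval of this MEIS2 probe set, and its other probe set stood at -0.13. PBX2 stood at -0.06 (interval -0.22 to 0.11), and its 6 probe sets, some with identical values, lay from -0.09 to -0.06. PBX4 stood at 0.01 and MEIS3 at 0.21, with intervals of -0.36 to 0.37 and -0.30 to 0.72. The pseudogene MEIS3P1 read 7.19 and 6.97 in mock and 7.17 and 7.40 in treated cells, with overlapping groups.

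To compare paralogs directly, the log2 ratio of their probe sets was taken on each array, for 9 pairs chosen after the values were seen. The groups did not overlap in 7 of the 9, while 48.6% of all genes tested singly did not overlap. Each pair holds a member with an unadjusted limma p under 0.05, so non-overlap was likely beforehand and the count is no support. The groups overlapped for IRX3 and IRX5, each set against IRX6, with differences of -0.11 and -0.13 (exact two-sided permutation p = 0.667 for each). The ratio of MEIS1 to MEIS2 was -1.87 and -1.79 in mock and -2.44 and -2.60 in treated cells, a difference of -0.69. That of PBX3 to PBX2 was -0.07 and -0.13 in mock and -0.40 and -0.32 in treated cells, a difference of -0.27. Neither ratio overlapped between the groups. With 2 arrays against 2, an exact two-sided permutation test cannot go below p = 0.333, which is the value for both pairs, so the differences between paralogs were not resolved by this test.

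The HOXD cluster patterns limbs, genitalia and the posterior body axis. All 9 of its genes were tested: 7 were lower and 2 higher, with a median of -0.20, and 3 of the 7 had an unadjusted p under 0.05 (52.1% of all genes were lower, 8.42% at that p). HOXD13, at the posterior end of the cluster and needed for digit formation, read 6.46 and 6.21 in mock and 5.68 and 5.75 in treated cells. The groups were well apart, and the change was -0.62 ± 0.11 SE, a 1.53-fold lower level (limma adjusted p = 0.166, and 0.036 with the intensity trend). HOXD9 read 6.95 and 6.89 in mock and 6.28 and 6.49 in treated cells. Again both treated values were below both controls, with a change of -0.53 ± 0.10 SE (limma adjusted p = 0.168, and 0.0318 with the intensity trend). HOXD8, its neighbour, read 6.81 and 6.92 in mock and 6.65 and 6.64 in treated cells, a smaller difference of -0.22 ± 0.07 SE (unadjusted p = 0.032 with limma).

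The genes between and beside these did not follow evenly. HOXD10 and HOXD11 stood at -0.20 each, with overlapping groups and intervals of -0.56 to 0.16 and -0.53 to 0.13. HOXD12, between HOXD11 and HOXD13, read 4.22 and 4.70 in mock and 4.96 and 4.21 in treated cells. It was dim and scattered, and its interval ran from -0.69 to 0.95. Toward the anterior end, HOXD1 stood at 0.08, HOXD3 at -0.17 and HOXD4 at -0.12, while the other probe set of HOXD4 read 5.98 and 5.55 in mock and 5.23 and 5.38 in treated cells, a difference of -0.46. RefSeq places HOXD3 and HOXD4 over the same stretch, so signal may not separate cleanly between them.

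In the HOXB and HOXC clusters, with 6 and 7 genes tested, 1 gene had an unadjusted p under 0.05 (16.4% of all genes). HOXC4, an anterior HOXC gene, read 7.72 and 7.68 in mock and 7.29 and 7.49 in treated cells. The groups did not overlap, and the change was -0.31 ± 0.09 SE (limma unadjusted p = 0.023, adjusted p = 0.236). Its RefSeq span overlaps HOXC5 and HOXC6, which are not analysed here, so its value cannot be assigned to HOXC4 alone. The other 6 HOXC genes tested lay between -0.08 and 0.17. At the top of that range was HOXC13, known from hair follicles, which read 3.92 and 4.08 in mock and 4.14 and 4.21 in treated cells, all near the filter. In HOXB, 6 of 10 genes were tested, 4 higher and 2 lower, and none had an unadjusted p under 0.05. HOXB2 and HOXB3, which pattern the hindbrain, stood at 0.25 ± 0.15 and 0.19 ± 0.10 SE. HOXB2 read 3.66 and 3.75 in mock against 3.76 and 4.15, and HOXB3 read 4.06 and 3.84 against 4.09 and 4.20. Neither pair of groups overlapped, although HOXB2's lower treated value almost met a control. HOXB8 had the lowest HOXB value, -0.45, which rested on 1 treated array (4.40 and 4.73 in mock, 4.47 and 3.76 in treated cells).

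**Figure D2:**
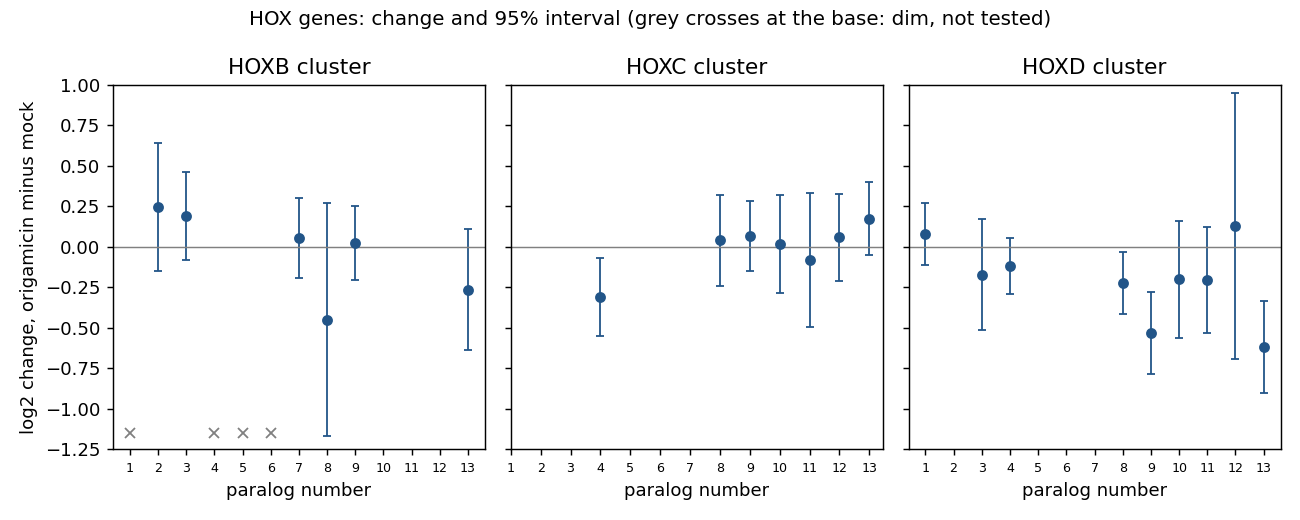
Log2 change (y axis, origamicin minus mock) of each HOXB, HOXC and HOXD gene against its paralog number (x axis), with the 95% interval from limma; grey crosses at the base mark dim genes that were not tested. Intervals lie wholly below 0 for HOXC4, HOXD8, HOXD9 and HOXD13 and include 0 for the rest.

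Paralogs of 1 number in different clusters can be set side by side. The ratio of HOXD9 to HOXC9 was 1.88 and 1.86 in mock and 1.09 and 1.45 in treated cells, and that of HOXD13 to HOXC13 was 2.54 and 2.13 in mock and 1.54 and 1.54 in treated cells. The differences were -0.60 and -0.79, with no overlap between groups (exact two-sided permutation p = 0.333 for each, the smallest possible). HOXC9 itself stood at 0.07, with a 95% interval of -0.15 to 0.28.

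**Figure D3:**
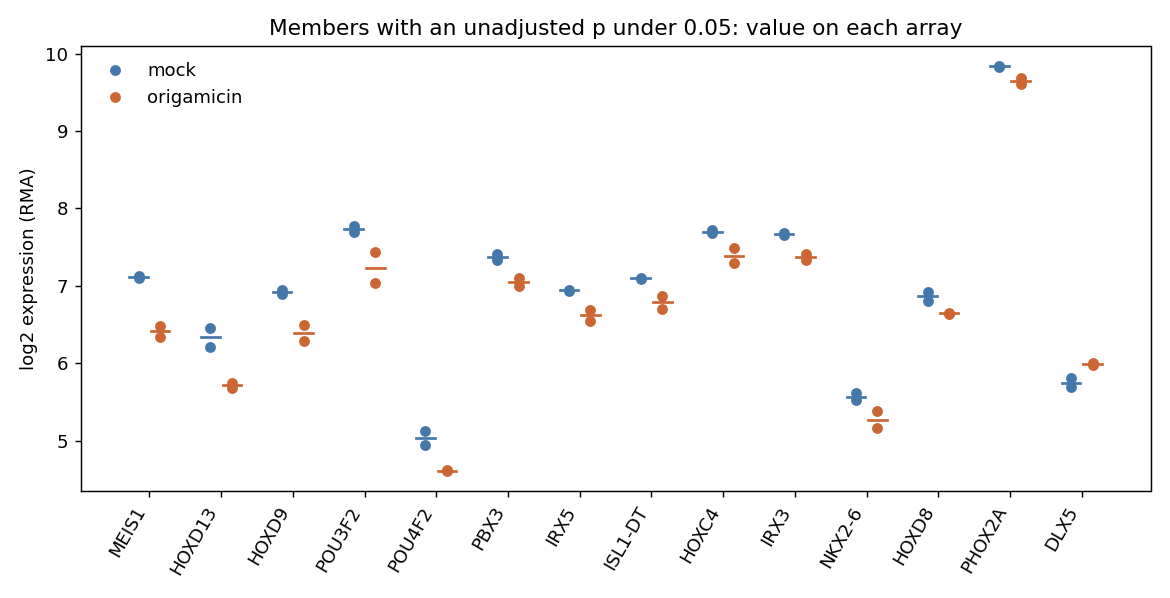
Deposited log2 expression (y axis) on each of the 4 arrays for the 14 members with an unadjusted p under 0.05, ordered by change from MEIS1 at -0.70 to DLX5 at 0.24; blue points are mock, orange points origamicin, and short bars the group means. In all 14 the groups do not overlap, and the 13 on the left are lower in treated cells. The 14 were picked by p on these same arrays, so non-overlap was likely beforehand (48.6% of all genes tested do not overlap).

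The stretch just before the transcription start was examined for 9 of these 14 members, those with a window in the RefSeq promoter table (GRCh38.p14; 65 of the 103 members have one). HOXD9, IRX3, IRX5, NKX2-6 and DLX5 are not among the 9. The 250 bases before the start are shown 5′ to 3′ for MEIS1 and HOXD13, which had the largest changes, for PBX3, which encodes a partner of HOX and MEIS proteins, and for POU3F2. Capitals mark matches, on either strand, to TGACAG (the MEIS site), TGATNNAT (the PBX-HOX site), TAATTA (a homeodomain core), CCAAT or TATAAA.
MEIS1, chr2:66434875-66435124, plus strand: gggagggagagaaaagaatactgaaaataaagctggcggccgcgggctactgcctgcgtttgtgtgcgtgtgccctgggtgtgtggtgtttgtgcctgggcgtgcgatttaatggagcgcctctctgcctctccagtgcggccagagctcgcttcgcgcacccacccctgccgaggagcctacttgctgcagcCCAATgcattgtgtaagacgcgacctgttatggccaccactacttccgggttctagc
HOXD13, chr2:176092471-176092720, plus strand: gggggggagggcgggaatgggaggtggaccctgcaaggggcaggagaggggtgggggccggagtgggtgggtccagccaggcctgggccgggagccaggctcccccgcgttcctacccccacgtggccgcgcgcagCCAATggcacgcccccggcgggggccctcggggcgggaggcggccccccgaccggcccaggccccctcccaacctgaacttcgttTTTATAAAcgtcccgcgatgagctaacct
PBX3, chr9:125747933-125748182, plus strand: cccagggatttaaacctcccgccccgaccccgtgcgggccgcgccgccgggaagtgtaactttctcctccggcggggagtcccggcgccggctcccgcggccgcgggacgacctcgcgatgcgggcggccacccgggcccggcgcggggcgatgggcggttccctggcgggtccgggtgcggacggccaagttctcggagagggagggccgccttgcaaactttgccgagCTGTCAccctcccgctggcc
POU3F2, chr6:98834324-98834573, plus strand: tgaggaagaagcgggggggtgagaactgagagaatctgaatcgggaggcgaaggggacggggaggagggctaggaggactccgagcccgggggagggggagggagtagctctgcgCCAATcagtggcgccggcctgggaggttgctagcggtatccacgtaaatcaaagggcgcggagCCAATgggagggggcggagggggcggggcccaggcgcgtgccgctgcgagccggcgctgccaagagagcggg
A CCAAT match was present in 6 of the 9 (MEIS1, HOXD13, POU3F2, PHOX2A, HOXC4 and ISL1-DT), against 32% of the 35116 promoter windows of the same length. In MEIS1 it began 57 bases before the start, in HOXD13 114 bases before it, and in POU3F2 135 and 72 bases before it. A TATAAA match occurred in HOXD13 only, 29 and 27 bases before the start on the 2 strands (10.7% of all windows hold one). The single MEIS site lay in PBX3, 20 bases before its start (13% of all windows), and none of the 9 held the PBX-HOX site (6.47%) or TAATTA (4.35%). These matches describe the letters in the window and were not tested against the changes.

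The Iroquois genes IRX3 and IRX5, neighbours in 1 cluster that act in neural and heart patterning, were lower by similar amounts. IRX3 read 7.68 and 7.65 in mock and 7.33 and 7.41 in treated cells, and IRX5 read 6.93 and 6.95 in mock and 6.54 and 6.69 in treated cells. The controls lay close together in both genes, and every treated value was below them. The changes were -0.30 ± 0.07 SE (limma unadjusted p = 0.0089, adjusted p = 0.183) and -0.32 ± 0.08 SE (unadjusted p = 0.012, adjusted p = 0.196). IRX6, the third gene of that cluster, stood at -0.19 on dim values, with an interval of -0.67 to 0.29. In the other Iroquois cluster IRX1 read 5.80 and 5.53 against 5.42 and 5.17, a change of -0.37 ± 0.14 SE, and IRX2 and IRX4 stood at 0.02 and -0.07.

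POU factors, which pair a POU-specific domain with a homeodomain, included both directions. POU3F2 (BRN2), a driver of neuronal differentiation, read 7.78 and 7.69 in mock and 7.03 and 7.43 in treated cells. Both treated values were lower but lay 0.40 apart, so the change of -0.50 carried an SE of 0.15 (limma unadjusted p = 0.025, adjusted p = 0.242). POU4F2 (BRN3B), a factor of retinal ganglion cells, read 5.12 and 4.94 in mock and 4.62 and 4.61 in treated cells. Its change was -0.42 ± 0.09 SE (limma adjusted p = 0.177, and 0.151 with the intensity trend), on dim values. POU3F3, a relative of POU3F2, read 5.72 and 5.56 against 6.03 and 5.73, a change of 0.24 ± 0.13 SE. The ratio of POU3F2 to POU3F3 was thus 2.05 and 2.13 in mock and 0.997 and 1.71 in treated cells. POU4F1 stood at -0.02 (interval -0.21 to 0.16). POU4F3, which acts in inner ear hair cells, read 5.26 and 5.32 against 5.48 and 5.40. POU6F1, at 6.57 and 6.63 in mock and 6.57 and 6.64 in treated cells, showed the smallest change of all tested members (0.00067; interval -0.18 to 0.18).

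The pluripotency factor POU5F1 (OCT4) stood at 0.10 ± 0.07 SE on values from 3.998 to 4.17. Its pseudogene POU5F1P4 read 5.28 and 5.68 against 5.69 and 5.73, and POU5F1P3 stood at -0.03. The copies are close in sequence, and probes may read more than 1 of them. Taken by family, 7 of the 14 POU genes tested were lower and 7 higher, and 2, both lower, had an unadjusted p under 0.05 (8.42% of all genes).

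PHOX2A, the noradrenergic homeodomain factor that activates DBH, was lower by a small amount on closely spaced values. It read 9.83 and 9.84 in mock and 9.68 and 9.60 in treated cells, and both treated values were below both controls. The change was -0.19 ± 0.07 SE (95% interval -0.37 to -0.01), a 1.14-fold difference, with a limma unadjusted p of 0.042 and an adjusted p of 0.285 (0.0753 with the intensity trend). Leaving out any 1 array moved the change between -0.23 and -0.15, and none of the 4 refits gave an unadjusted p under 0.05. The unadjusted limma p was also above 0.05 with the replicate block (0.0685), without a filter (0.0569), with quantile normalization (0.0686) and with cyclic loess (0.0564).

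LIM-homeodomain genes, which specify neuronal subtypes, held no protein-coding member with an unadjusted p under 0.05 (16.4% of all genes). The RNA ISL1-DT, a divergent transcript grouped here by its name, did. ISL1-DT read 7.09 and 7.10 in mock and 6.70 and 6.87 in treated cells, a change of -0.31 ± 0.08 SE (limma unadjusted p = 0.016, adjusted p = 0.215). The 8 LHX and ISL2 genes tested lay between -0.32 and 0.19. The lowest, LHX4, read 4.13 and 4.005 in mock and 4.003 and 3.50 in treated cells, with an interval of -0.81 to 0.18. ISL2 stood at 0.01 on its brighter probe set and -0.20 on the other.

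DLX5 was the only member higher at an unadjusted p under 0.05. It encodes a Distal-less factor of forebrain interneurons and bone, and read 5.81 and 5.69 in mock and 6.01 and 5.98 in treated cells. The groups did not overlap, and the change was 0.24 ± 0.07 SE, 1.18-fold higher (limma unadjusted p = 0.027, adjusted p = 0.247). Its cluster neighbour DLX6 went the other way in value, at 7.52 and 7.56 in mock and 7.44 and 7.26 in treated cells (-0.19 ± 0.09 SE). The ratio of DLX5 to DLX6 was -1.71 and -1.87 in mock and -1.43 and -1.29 in treated cells, a difference of 0.43 with no overlap. DLX6 overlaps the antisense gene DLX6-AS1 in RefSeq, and whether the labelling kept strands apart is not given in the sources used here. DLX3, a factor of skin and teeth, stood at 0.24 ± 0.14 SE with overlapping groups (4.19 and 3.83 against 4.31 and 4.18), and DLX1 and DLX2 at 0.15 and 0.11.

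MSX2, a target of BMP signalling in craniofacial tissue, read 6.11 and 5.90 in mock and 6.28 and 6.16 in treated cells, a change of 0.22 ± 0.10 SE (limma unadjusted p = 0.10). MSX1 stood at 0.02 (interval -0.17 to 0.20).

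NKX genes, which pattern the ventral neural tube, heart and gut, were mostly lower by small amounts. Of 12 tested, 10 were lower and 2 higher, the median was -0.13, and in 7 of the 10 the groups did not overlap. Over all genes tested 52.1% were lower, and 25.8% were lower without overlap. NKX2-6, a factor of the heart and pharynx, was the only one with an unadjusted p under 0.05: 5.62 and 5.52 in mock and 5.38 and 5.16 in treated cells, a change of -0.30 ± 0.10 SE (limma unadjusted p = 0.036, adjusted p = 0.274). NKX2-1, which specifies lung, thyroid and ventral forebrain, read 4.50 and 4.28 against 4.48 and 4.61, with overlapping groups, and its other, dim probe set stood at -0.07. NKX2-2 also had probe sets of opposite sign, -0.16 and 0.32.

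PAX genes and SIX2 with its relatives, regulators of eye, muscle, kidney and pharyngeal development, held no member with an unadjusted p under 0.05. They had 6 and 4 genes tested, and 16.4% of all genes had such a p. SIX6, an eye and pituitary factor, had the smallest p among the latter and read 4.85 and 5.01 in mock and 4.64 and 4.78 in treated cells (-0.22 ± 0.09 SE). SIX2, a kidney progenitor factor, had the largest change among them, -0.31, with an interval of -0.71 to 0.08. PAX9, a factor of teeth and thymus, read 3.98 and 3.98 against 3.67 and 3.85 (-0.22 ± 0.09 SE), so that its treated values lay around the filter. The other 5 PAX genes tested lay between -0.08 and 0.09. OTX1, a forebrain gene, stood at -0.05 ± 0.09 SE, read 4.49 and 4.61 against 4.58 and 4.41, and changed sign when mock replicate 2 or origamicin replicate 2 was left out (0.0037 and 0.033).

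**Figure D4:**
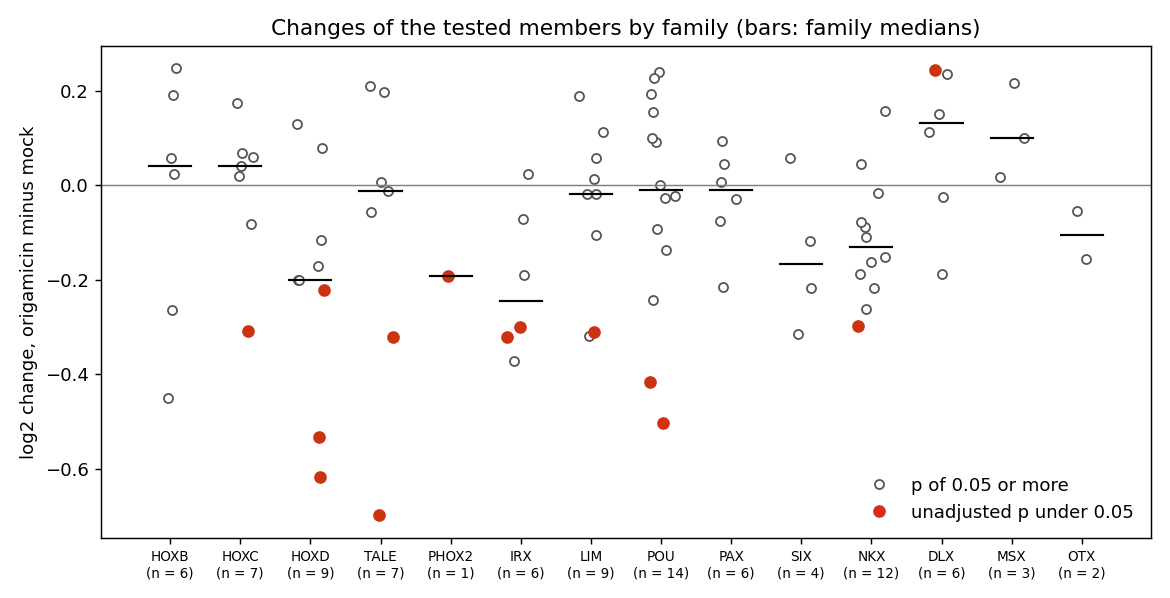
Log2 change (y axis, origamicin minus mock) of the 92 tested members by family (x axis, n below each name; TALE holds MEIS and PBX, LIM holds LHX and ISL); red points have an unadjusted p under 0.05 in limma, open points do not, and bars are family medians. The lowest median is that of IRX (-0.25), followed by HOXD (-0.20), and DLX has the highest (0.13).

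Homeobox genes outside the naming rule were read in the same fit. Of 106 listed, 88 were named and 77 tested: 15 were lower and 2 higher at an unadjusted p under 0.05 (8.42% and 7.99% of all genes), and the median was -0.01. In the fit with an intensity trend, 2 of the 77 passed, both lower, where 4.3% of all genes passed. PROX1, a factor of neuronal and lymphatic fate, was at -0.32 ± 0.07 SE and the zinc finger homeobox gene TSHZ3 at -0.52 ± 0.11 SE (limma adjusted p = 0.177 for both, and 0.0163 and 0.0277 with the trend). HESX1, a pituitary and forebrain repressor, stood at -0.41 ± 0.09 SE (limma adjusted p = 0.177).

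Polycomb and Trithorax proteins, which keep HOX genes silent or active through histone marks, stood on both sides of 0. All 40 named genes of 52 were tested, 4 higher and 4 lower at an unadjusted p under 0.05 (7.99% and 8.42% of all genes), with a median of 0.02. KDM6B, a demethylase that removes the Polycomb mark from histone H3, read 9.02 and 8.90 in mock and 8.64 and 8.65 in treated cells (-0.32 ± 0.07 SE; limma adjusted p = 0.183, and 0.0285 with the trend). PHC3, a Polycomb subunit, stood at 0.27 ± 0.06 SE and KMT2D, a histone H3 methyltransferase, at 0.45 ± 0.12 SE (limma adjusted p = 0.184 and 0.225). PCGF2, a Polycomb subunit, was the other gene of the list to pass with the trend, at -0.24 ± 0.07 SE (limma adjusted p = 0.0497 with the trend). In that fit 4.3% of all genes passed.

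Retinoic acid is a classic inducer of HOX genes, but only 11 of 32 genes of its pathway were named and 9 tested. The coactivator NCOA1 was at 0.32 ± 0.07 SE and the retinoic acid carrier CRABP2 at -0.32 ± 0.08 SE (limma adjusted p = 0.177 and 0.194). Both passed with the intensity trend (limma adjusted p = 0.0186 and 0.0458), where 4.3% of all genes passed. RDH10, a retinol dehydrogenase, stood at 0.20 ± 0.09 SE (limma adjusted p = 0.357).

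Among other regulators and receptors of noradrenergic neuroblastoma, 12 of 15 tested were lower, 6 of them at an unadjusted p under 0.05, and 1 was higher at that level (8.42% and 7.99% of all genes). In all, 5 passed with the intensity trend, all lower, against 2.16% of all genes. LMO3 and LMO1, LIM-only cofactors, had the smallest p-values of the list, at -0.71 ± 0.08 and -0.62 ± 0.10 SE (limma adjusted p = 0.104 and 0.157, and 0.0141 and 0.0163 with the trend). RET, a receptor tyrosine kinase of this lineage, was next by p, at -0.43 ± 0.07 SE (limma adjusted p = 0.167).

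Markers were read to check the cells. All 10 named noradrenergic markers of 15 were above the filter, including DBH, HAND2, GATA2 and GATA3. Their summed log2 values were 99.4 and 99.9 in mock and 96.8 and 97.0 in treated cells. In all, 9 of the 10 were lower (52.1% of all genes). CHGA, CHGB and DDC passed with the intensity trend, all lower (2.16% of all genes). The 95% intervals of TH, HAND2, GATA2, GATA3 and STMN2 included 0, with changes from -0.11 to 0.04. Markers of mesenchymal neuroblastoma cells, the other cell state such cultures can hold, summed to 85.1 and 84.6 in mock and 88.6 and 87.1 in treated cells over 14 named of 16, with 10 of 13 tested higher. Of these, FOSL1, VIM, FN1 and SNAI2 passed with the intensity trend, where 2.14% of all genes passed higher. The 95% intervals of PRRX1, YAP1, WWTR1, NOTCH2, MEOX1 and IGFBP6 included 0. NOTCH3, TWIST1 and MEOX2 were lower, at -0.20, -0.05 and -0.14. Glial and Schwann cell markers summed to 33.3 and 33.6 in mock and 33.6 and 33.9 in treated cells over 7 of 10. None of the 7 had an unadjusted p under 0.05 (16.4% of all genes). No marker is at 0, since RMA gives every probe set a level. The noradrenergic list, which holds PHOX2A itself, was lower in sum and the mesenchymal list higher in sum in treated cells, beside the members' lower values above, and their part in the members' changes was not tested. In these bulk RNA samples a smaller share of cells expressing a gene and less RNA per cell cannot be told apart.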

How the data were processed

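RNA from 4 SH-SY5Y samples was read on Affymetrix Human Gene 2.0 ST arrays. The deposited values are log2 expression per probe set; the submitters' processing notes name RMA, which corrects background, normalizes by quantiles and summarizes probes, and limma, with no version for either. They were not normalized again. Which genome build and annotation the authors used is not given in the sources used here. Arrays have no counting depth, so their number limits the precision.

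Of 53617 probe sets, 16098 have 1 gene in the platform annotation, none has several, and 37519 have no name here. The probe set with the highest mean was kept for each of 14884 genes, and 3001 with a mean below the 40th percentile (3.82) were left out. All 103 members matched RefSeq with the same symbol, and 8 had more than 1 probe set. Over 11883 genes, arrays correlated at 0.995 and 0.994 within groups and 0.991 to 0.992 between them, and array medians were 4.37 to 4.42.

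Origamicin was compared with mock in limma 3.58.1 (R 4.3.3), two-sided, with 1 prior variance for all genes and no covariate. Benjamini-Hochberg adjustment was made over all 11883 genes. The fit was also run on simulated data whose spread was unrelated to intensity. That run cannot check the use of 1 prior variance where spread follows intensity. Called means an adjusted p under 0.05. Members and lists were chosen with earlier results of these data known. The genes named are PHOX2A, the 12 members with the smallest p on each side, the one with the smallest p in each remaining family, and 3 from each other list; other members are added by family as examples chosen after their values were seen. Alternatives tried (block, filter, scaling, probe sets, variance model, thresholds, left-out arrays) are in the closing section.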

Additional observations from a re-analysis of the deposited data

How the results depend on the processing

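No member passed an adjusted p of 0.05 in limma under a replicate block, no filter, equal array medians, quantile normalization, cyclic loess, averaged probe sets or robust eBayes. The count was 1 with the filter at the 60th percentile and 3 with an intensity trend in eBayes, and all of these were lower. At a threshold of 0.1, tried in the unchanged limma fit only, no member passed, against 0.446% of all genes. MEIS1 had a limma adjusted p of 0.0787 with equal array medians, 0.097 with quantile normalization and 0.092 with cyclic loess. The 14 members at an unadjusted limma p under 0.05 (16.4% of all genes) became 5 at 0.01, where the share of all genes was not computed. Among the settings on all 4 arrays, the replicate block gave 17 of 92, of which 15 were lower, where 14.5% of all genes had such a p. Without a filter there were 13 of 103, against 12.9% of all genes. The labels' replicate numbers name no shared day or passage, the deviations of same-numbered arrays correlated at r = -0.02 (1 value, with 2 arrays per group), and the replicate block changed no call at the adjusted threshold.

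The members' median change of -0.03 was -0.0557 with the 60th percentile filter, which drops dim members, and -0.0561 to -0.0332 without 1 array. For the 28 named members, 354 refits kept the direction and the side of the threshold in 348 cases. No gene of all those tested passed under the block, no filter, equal medians, quantile normalization, cyclic loess, averaged probe sets or robust eBayes. A member therefore could not change side under these settings. In the refits without 1 array the side was fixed in the same way. Only the 60th percentile filter and the intensity trend could move a member across the threshold. The block, the filters, the trend and robust eBayes also leave each log2 change as it is, so no sign could turn there. In 4 cases a member passed (MEIS1 under both settings named above, HOXD13 and HOXD9 with the trend). In 2 cases the sign turned, both OTX1: 0.0037 without mock replicate 2 and 0.033 without origamicin replicate 2, in a range from -0.14. MEIS1, HOXD13, HOXD9, POU4F2 and IRX3 had an unadjusted p under 0.05 without any 1 array, PBX3 in 3 of 4 such refits, IRX5 and POU3F2 in 2, HOXC4, HOXD8, ISL1-DT, NKX2-6 and DLX5 in 1, and PHOX2A in none. HOXD8 had an unadjusted p of 0.0527 with the replicate block, and NKX2-6 of 0.0513 with the intensity trend. With 1 array left in a group, limma assumes that it varies like the other group. Signal over background limits the dim members, and the median SE over tested members was 0.10.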
